A study of Rattus norvegicus with 2 samples.

Results

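Genes of microtubules and of the motors that travel along them were compared between both sides of rats with a tumor in 1 tibia. The array's probe-to-gene table was searched for symbols of alpha-, beta- and gamma-tubulins, kinesin motors and kinesin light chains, subunits of cytoplasmic dynein and dynactin, stathmins, and the microtubule-associated proteins (MAPs) Map1a, Map1b, Map2, Map4 and Mapt. This gave 121 probe sets of 76 genes, of 14217 genes with a symbol of their own on the array. Where a gene had more than 1 probe set, as 29 of the 76 did, its brightest one (by the mean of both log2 signals) was taken. The rats were 4-week-old female Sprague-Dawley rats whose right tibia had been injected with 100000 IP-B12 cells (rat lung carcinoma cells that destroy bone) into the marrow 14 days before the ganglia were taken. The tumor-side group was 1 array of DRGs (dorsal root ganglia, where sensory neurons, or SNs, have their cell bodies) belonging to the right tibia. The control-side group was 1 array of DRGs of the left tibia of inoculated rats, so that the control ganglia came from tumor-bearing animals as well, and neither a sham injection nor the number of rats is given in the sources used here.

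Microtubules are hollow tubes of alpha- and beta-tubulin that run along the whole axon. The SNs of a DRG send their axons over very long distances, and proteins and organelles reach the axon ends on kinesins, which mostly walk outwards, and come back with dynein, which walks towards the cell body with the help of dynactin. MAPs stabilise and space the microtubules, and stathmins bind free tubulin and promote disassembly. A separate set of kinesins works in the spindle of dividing cells.

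A signal is the MAS 5.0 value of 1 probe set on a linear intensity scale, a robust average over its probe pairs of perfect match less mismatch brightness, and each ratio is the tumor-side over the control-side signal. Where a pair of signals follows a gene, the control side comes first. Since each side is a single array, nothing could be tested or given a replicate error, and every difference given here describes these 2 arrays. Whole ganglia were measured, so fewer cells of a type and less RNA per cell cannot be told apart. The only spread at hand is that between probe sets of the same gene, whose log2 ratios had an SD of 0.07 at signals of 1024 and above (199 genes), of 0.13 between 256 and 1024 (461 genes), of 0.21 from the signal rule to 256 (528 genes) and of 1.10 below it (1357 genes). The signal rule was a geometric mean of both signals of at least 70.5, the level of the array medians, which 62 of the 76 members and 9501 of all genes passed. Signals of different probe sets depend on their probes and are not compared here as amounts of RNA. The tumor-side array was slightly brighter, and the median log2 ratio over the 9501 genes was 0.08. Neuronal markers were bright on both arrays, as in the SN markers Prph (signals of 8896 and 8852) and Nefl (8513 and 8805), and the 15 of 16 listed SN markers that were measured had a median log2 ratio of -0.01. Of these 15, 7 were higher and 8 lower on the tumor side. The largest differences were in Pou4f1 (311 and 247) and Isl1 (370 and 327), both lower on the tumor side. Markers of Schwann cells and satellite glia lay near the median of all genes, with a median log2 ratio of 0.07 over 9 genes above the rule. Markers of the other tissues listed differed more between the sides. Above the rule, the median log2 ratio was 0.98 over 6 bone and cartilage genes and 0.20 over 9 connective tissue genes. It was 0.18 over 7 macrophage genes, 0.20 over 3 endothelial genes and -0.48 over 2 erythroid genes. It was -0.999 over 5 granulocyte and platelet genes and -1.04 over 7 skeletal muscle genes, of which 4 were lower and 3 higher on the tumor side.

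The microtubule and motor genes were close to equal on both sides. Of the 62 members above the rule, none reached a tumor-side signal 1.5 times that of the control side, against 0.842% of all genes above the rule, and none was 1.5 times lower or more, against 0.484%. With shares this small, hardly any gene of 62 would be counted, so that finding none says little. A difference of at least 25% upwards or 20% downwards (the same fold in either direction) was seen only in the mitotic kinesin Kif20b, which was higher, and the kinesin light chain Klc4, which was lower, while 6.93% of all genes above the rule were higher and 2.42% lower by that much. Signals differed by less than 10% for 48 of the 62 members, and for 58.3% of all genes. The members were brighter than all genes, with 29 of the 62 and 2049 of the 9501 at signals of 1024 and above. Ratios spread less at such signals, and these shares are not matched for signal. The median log2 ratio of the 62 was 0.02, and 46 of them lay below the median of all genes and 16 above it. As deposited, 25 of the 62 were lower on the tumor side, against 28.6% of all genes. Over all 76 members the median was 0.01, with 1 gene past a fold of 1.5 on the higher side (7.97% of all 14217 genes) and 2 on the lower side (6.25%), and these 3 were Kif14, Kif6 and Klc3, all below the signal rule.

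**Figure D1:**
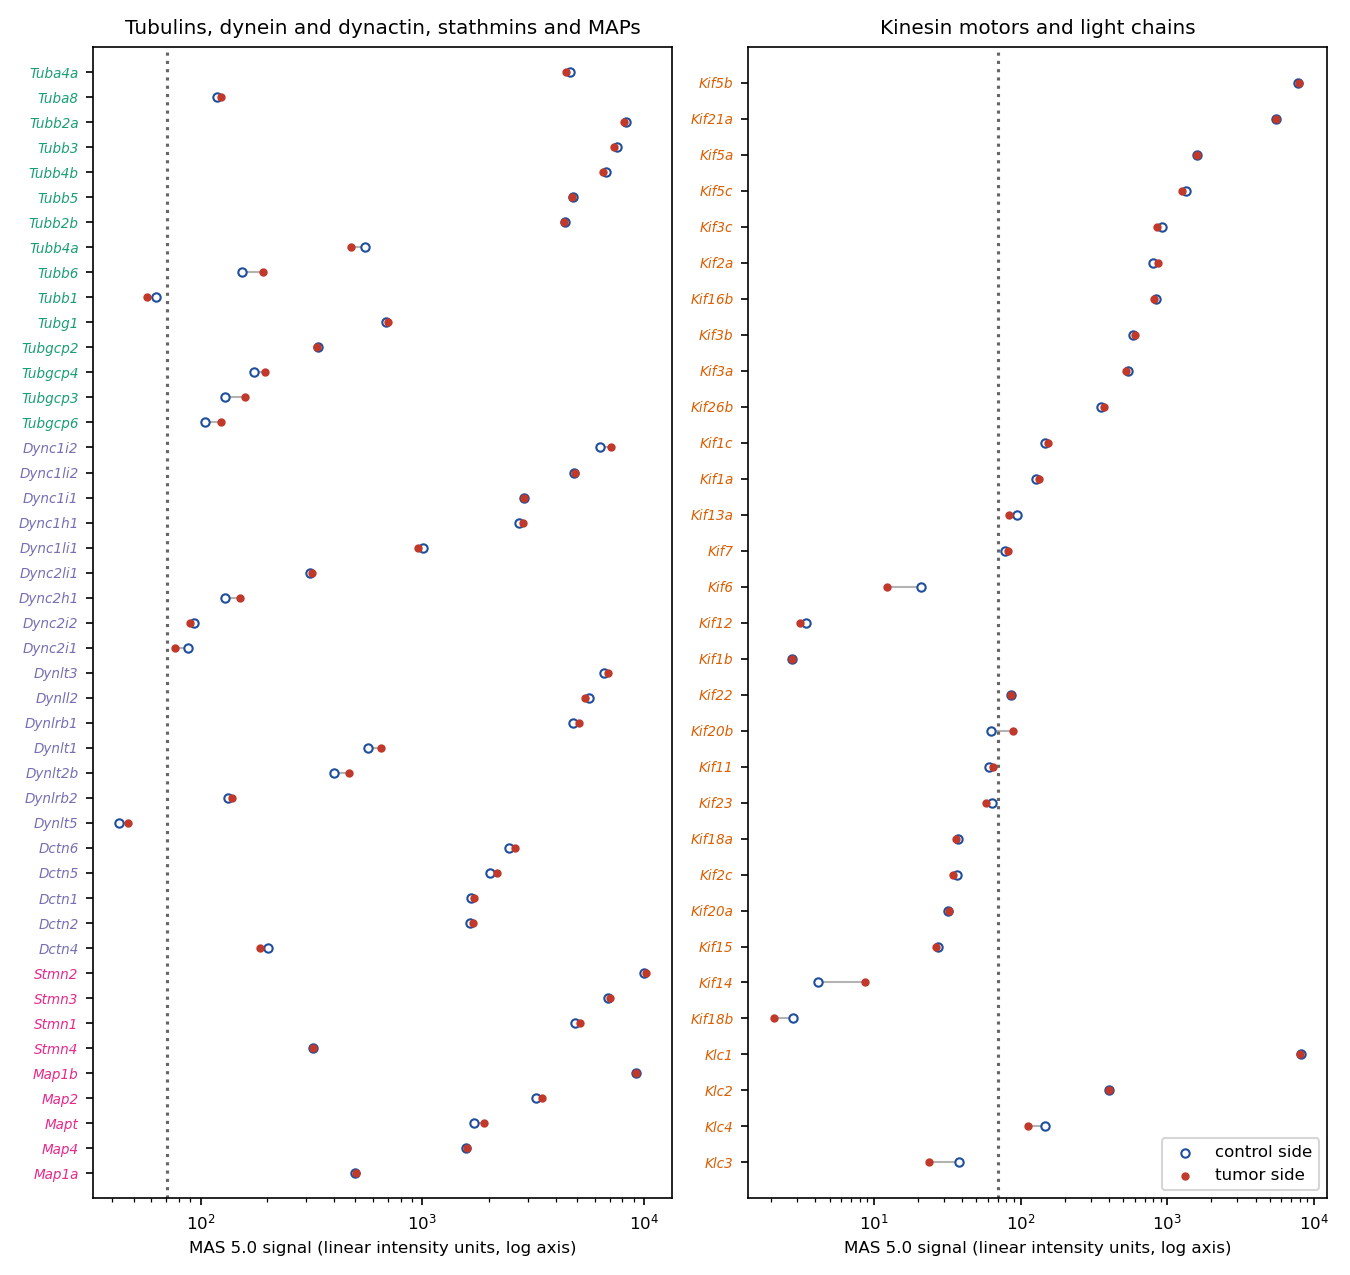
Signal of each of the 76 genes on the control-side array (open circle) and the tumor-side array (filled dot), 1 row per gene and 1 value per side, on a log axis, with the signal rule of 70.5 as a dotted line and symbols coloured by class. The circle and the dot overlap for most genes above the rule, and the widest gaps belong to dim genes such as Kif14, Kif6 and Klc3.

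The position below the median gene was seen in each range of signal above the rule. Among the 29 members with signals of 1024 and above, log2 ratios ran from -0.10 to 0.16 with a median of 0.01, while 2049 genes of this range had a median of 0.08 and a lower quartile of 0.02. Of these 29, 23 lay below that median. From 256 to 1024, 13 of 16 members lay below the median of 0.09 over 3823 genes, and from the rule to 256, 10 of 17 lay below the median of 0.08 over 3629 genes. The SN markers lay in the same place, with 13 of 15 below the median of all genes, and the part that the share of neuronal RNA has in this was not tested.

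**Figure D2:**
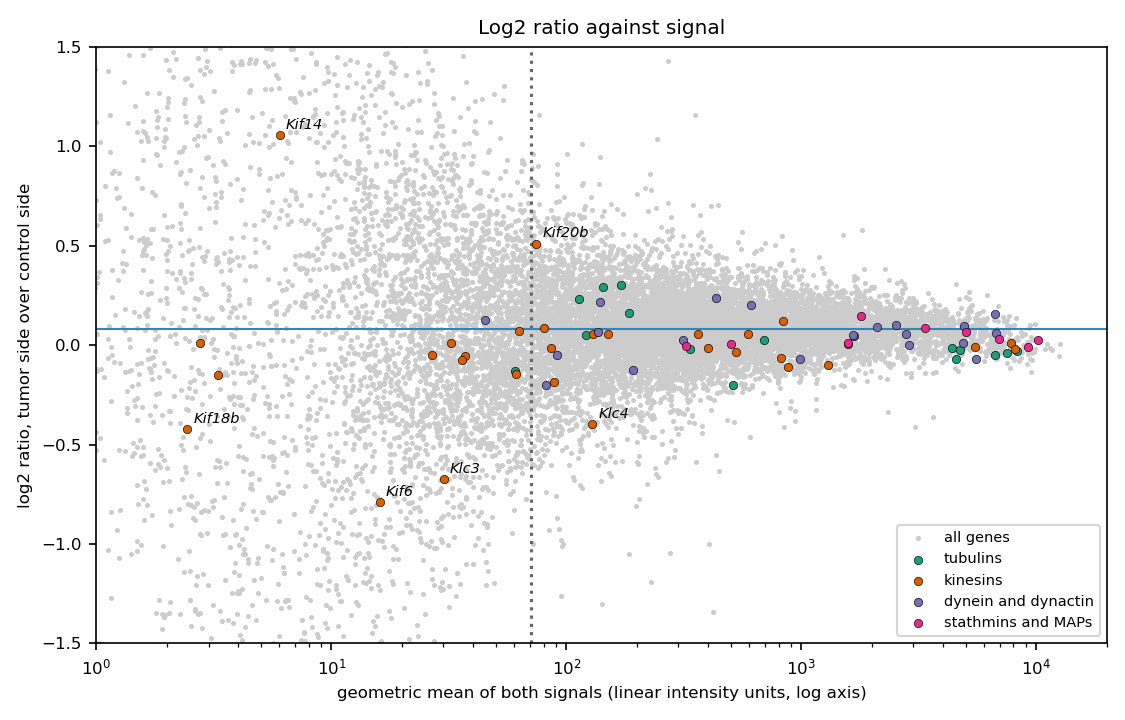
Log2 ratio, tumor side over control side, plotted against mean signal (geometric, log axis), with all genes in grey and members coloured by class. The dotted line is the signal rule and the blue line the all-gene median of 0.08. The members stay within the grey cloud, which widens at low signal, and Kif20b and Klc4 are the members above the rule that lie farthest from it.

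Tubulins form the wall of the microtubule. Of 10 alpha- and beta-tubulin genes, 9 were above the rule, and their log2 ratios ran from -0.20 to 0.30 with a median of -0.03. The neuronal beta-tubulin Tubb3, a marker of neurons, had signals of 7577 and 7364 on a probe set that may cross-hybridise. Its only other probe set had 9.19 and 5.76, far below the rule, so no usable value of Tubb3 remains without the first. Tubb2a had 8335 and 8155, and Tubb2b, its close relative, had 4415 and 4377. The widely expressed Tubb5 had 4796 and 4718, and Tubb4b had 6773 and 6536. These 5 beta-tubulins were therefore all slightly lower on the tumor side, by between 0.85% and 3.50%. They stayed lower under quantile normalization, centring and loess, but each of these scalings moved their log2 ratios further down. Centring takes 0.08 from every gene, so that staying lower adds no support. Tubb4a, a brain beta-tubulin, was lower by more, with 551 and 479, also on a probe set that may cross-hybridise. Its other probe sets had 304 and 286, and 195 and 180, so that all 3 went the same way. Tubb6 went the other way, with 154 and 190, which is 1.24 times higher (log2 ratio 0.30). It was the highest tubulin, and a second probe set of Tubb6 at 2.03 and 4.85 was too dim to add to this. Tubb1, the beta-tubulin of platelets, had 63.0 and 57.6, below the rule. The alpha-tubulin Tuba4a had 4646 and 4434, and Tuba8 had 119 and 123. The main alpha-tubulins Tuba1a, Tuba1b and Tuba1c share 1 probe set, which has several symbols and was not counted among the members, with 12140 and 11405. A further pair of probe sets lists Tubb4b beside another gene, and these were higher on the tumor side, with 332 and 374, and 144 and 159, unlike the probe set of Tubb4b alone.

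The promoters of the beta-tubulins are shown here because most of these genes share a motif that the choice of genes did not use. In the RefSeq windows of 250 bases before the gene start (assembly GRCr8), the letters CCAAT, on either strand, were found in 7 of 9 beta-tubulin windows, which belong to 6 of 8 genes (Tubb1, Tubb2b, Tubb3, Tubb4b, Tubb5 and Tubb6). They were found in 34.6% of the windows of genes on the array and in 34.0% of all windows. Over all members the share was 41.2%, and the dynein light chains held them in 3 of 4 windows. This set was singled out after the counts were seen, so it is a description with no test. Tubb6, which was higher on the tumor side, and Tubb3, Tubb4b and Tubb5, which were slightly lower, all hold the letters. The last 150 bases before the start of 3 of them are given 5′ to 3′, for Tubb3 (chr19:68365537-68365686, plus strand), Tubb5 (chr20:2917427-2917576, plus strand) and Tubb4b (chr3:28438456-28438605, minus strand). Capitals mark CCAAT or ATTGG (the CCAAT box), GGGCGG or CCGCCC (the GC box) and TATAAA (the TATA box).
Tubb3: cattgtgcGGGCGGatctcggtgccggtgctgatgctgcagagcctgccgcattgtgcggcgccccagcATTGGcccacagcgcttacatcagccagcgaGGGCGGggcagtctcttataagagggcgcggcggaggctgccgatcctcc
Tubb5: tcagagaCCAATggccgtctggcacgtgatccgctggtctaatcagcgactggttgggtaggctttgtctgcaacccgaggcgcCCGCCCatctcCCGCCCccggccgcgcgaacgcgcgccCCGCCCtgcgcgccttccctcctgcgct
Tubb4b: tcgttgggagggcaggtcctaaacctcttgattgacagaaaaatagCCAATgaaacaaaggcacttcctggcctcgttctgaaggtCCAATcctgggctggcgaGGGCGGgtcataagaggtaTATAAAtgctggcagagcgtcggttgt
The stretch of Tubb4b holds CCAAT on 2 occasions and a TATA box, while those of Tubb3 and Tubb5 hold 1 CCAAT box each, beside GC boxes. GC boxes were common, with 57.4% of 68 windows of 64 members and 52.4% of the windows of genes on the array. Subgroups differed, with none of 4 dynactin windows and 1 of 5 windows of gamma-tubulin and its complex, against 13 of 15 windows of non-mitotic kinesins. These subgroups too were picked after the counts were seen. The median share of G and C letters in their windows was 58%, 60% and 66.4%, and its part in the counts was not tested.

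Gamma-tubulin nucleates microtubules as part of a ring complex. All 5 genes of this group were above the rule, with a median log2 ratio of 0.16, the highest among subgroups with at least 3 genes above the rule. Gamma-tubulin itself, Tubg1, was close to equal, with 690 and 703, as was the complex subunit Tubgcp2, with 338 and 334. Tubgcp3 had 129 and 158, Tubgcp4 had 174 and 195, and Tubgcp6 had 105 and 123. These 3 dimmer subunits were thus higher on the tumor side by 11.7% to 22.6%, in a signal range where probe sets of the same gene had an SD of 0.21. They stayed higher under quantile normalization, centring and loess, with log2 ratios of 0.21, 0.08 and 0.16 for Tubgcp3, Tubgcp4 and Tubgcp6 after quantile normalization.

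Kinesins that carry cargo along the axon differed little on their brightest probe sets. The kinesin-1 heavy chain Kif5b, the general cargo motor, had 7801 and 7849. Its neuronal relatives were Kif5a, with 1585 and 1592, and Kif5c, with 1341 and 1253. The other probe sets of Kif5a above the rule were lower on the tumor side, with 550 and 487, and 289 and 268. The mean log2 ratio over its probe sets above the rule was -0.09. Klc1, the main kinesin light chain, which links kinesin-1 to cargo, had 8139 and 8020, and Klc2 had 402 and 398. Both the motor and its main light chain were thus within 2% on the 2 arrays, and Kif5c was 6.58% lower. The kinesin-2 motors, which serve axons and cilia, had 536 and 524 for Kif3a, 581 and 604 for Kif3b and 916 and 848 for Kif3c. Kif21a, a kinesin-4 motor that also slows microtubule growth, had 5493 and 5467. Kif1a, the motor of synaptic vesicle precursors, had 128 and 133 on its brightest probe set. Kif1b, a motor for mitochondria and synaptic vesicle precursors, was at 2.76 and 2.78 on its only probe set with a single symbol, no higher than the dimmest controls, where trp spike controls reached 5.39 and 4.63. Of 4 further probe sets shared by Kif1b with neighbouring genes, the brightest had 347 and 393, and the sign of the log2 ratio differed among them (0.18, -0.05, -0.01 and 0.47). The depolymerising kinesin Kif2a had 799 and 869, and the endosome motors Kif16b and Kif13a had 841 and 805, and 94.6 and 83.3. Over the 17 non-mitotic kinesins, 14 were above the rule, with a median log2 ratio of 0.01 and a range from -0.18 to 0.12. The remaining 3 above the rule were Kif1c, Kif7 and Kif26b, between 3.84% and 6.12% higher as deposited, and close to 0 after quantile normalization. Below the rule, Kif6 had 21.1 and 12.2, and Kif12 had 3.47 and 3.13.

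On their brightest probe sets the 4 kinesin light chains were lower on the tumor side, but Klc1 and Klc2 had log2 ratios of only -0.02 and -0.01. The other probe sets of Klc1 above the rule went both ways, with 405 and 439, and 345 and 317. Klc4 differed most among members above the rule on the lower side, with 148 and 112 (log2 ratio -0.40). It stayed the lowest of these members under quantile normalization, centring (which cannot change the order), loess and the pseudocount. Klc3 had 37.9 and 23.8 on a dim probe set and 21.9 and 20.8 on another. The median log2 ratio was -0.02 over the 3 above the rule and -0.21 over all 4. The 150 bases before the start of Klc4 (chr9:21834985-21835134, GRCr8, plus strand) are shown because it was the lowest member. Capitals mark CCGCCC, the GC box on the opposite strand.
Klc4: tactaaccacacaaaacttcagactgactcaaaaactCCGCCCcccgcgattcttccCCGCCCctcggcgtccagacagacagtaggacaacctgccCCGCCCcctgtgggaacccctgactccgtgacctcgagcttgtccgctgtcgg
No CCAAT or TATAAA was found in these letters, and the 3 GC boxes are of a kind that 52.4% of the windows of array genes hold.

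Mitotic kinesins, which build and pull apart the spindle, were dim. Of 10 measured, 8 were below the signal rule, and the 2 above it were Kif22, which moves chromosomes, with 86.6 and 85.8, and Kif20b, which acts in cell division, with 62.4 and 89.0. Kif20b had the highest log2 ratio of all members above the rule, 0.51, which is 1.43 times higher. Its control-side signal lay under the control-side median of 68.8, so it met the rule with the help of its tumor-side signal. It stayed the highest member above the rule under quantile normalization, centring (which cannot change the order), loess and the pseudocount, at 0.43 to 0.45. Among the others, Kif11, the motor that separates the spindle poles, had 61.4 and 64.5, Kif23, which acts at the end of division, had 63.9 and 57.8, and Kif18a, Kif2c, Kif20a and Kif15 had ratios between 0.95 and 1.01. Kif18b had 2.82 and 2.10. Kif14 had 4.18 and 8.70, and its control-side signal was no higher than the trp controls, so no fold is given. The median log2 ratio over all 10 was -0.03. Proliferation genes were mixed too. Of 15 measured, 6 were above the rule with a median of 0.10, and they ran from the proliferation marker Mki67, with 105 and 82.4, to the cyclin Ccnb2, with 99.01 and 115. Below the rule, Cdk1, the main mitotic kinase, had 49.8 and 81.6, and Top2a, a topoisomerase of dividing cells, had 71.9 and 56.8. The summed signal of the 15 was 2362 and 2572, and without Pcna, a replication clamp with 1363 and 1576, that of the other 14 was 999.2 and 995.7. Their part in the value of Kif20b was not tested.
The 150 bases before the start of Kif20b (chr1:241840866-241841015, GRCr8, plus strand) are shown because it was the highest member. Capitals mark TTTGAA, a cell cycle motif known as CHR, and the GC box CCGCCC.
Kif20b: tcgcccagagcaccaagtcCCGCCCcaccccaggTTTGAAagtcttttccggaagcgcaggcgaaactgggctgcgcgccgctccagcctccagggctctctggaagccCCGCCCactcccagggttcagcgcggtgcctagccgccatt
In the windows of 250 bases, TTTGAA on either strand was found in 4 of 10 windows of mitotic kinesins (Kif15, Kif20b, Kif22 and Kif23). It was found in 11.3% of the windows of array genes, 16.2% of all windows and 14.7% of the windows of members. The letters were not particular to mitotic kinesins, as 2 of 3 windows of structural MAPs held them (Map1a and Map2). Of the 4 mitotic kinesins, Kif20b was higher on the tumor side, and Kif15, Kif22 and Kif23 were slightly lower as deposited.

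**Figure D3:**
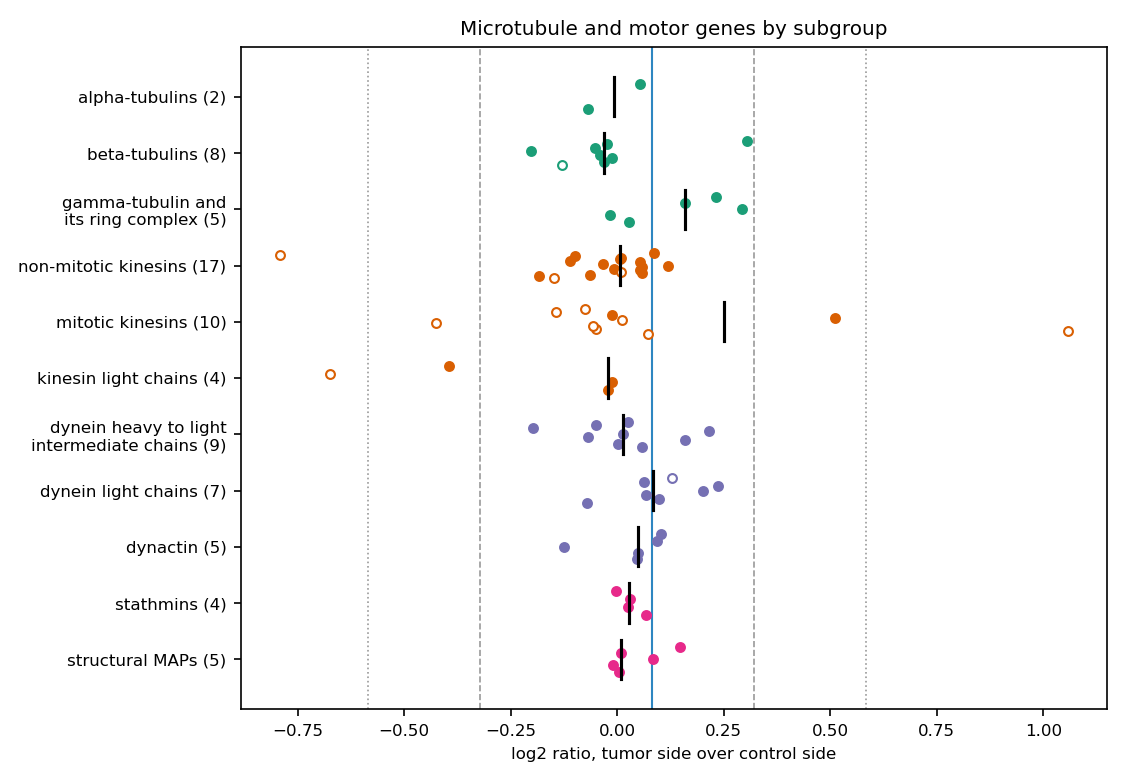
Log2 ratio (tumor side over control side) of each member by subgroup, 1 point per gene, filled above the signal rule and open below it, and brackets hold gene counts. The black bar is the median of the filled points, the blue line the all-gene median (0.08), and dashed lines mark 25% higher and 20% lower and dotted lines a fold of 1.5. Filled points reach past a dashed line only for Kif20b and Klc4.

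The dynein complex, the motor for transport back to the cell body, was close to equal. Its heavy chain Dync1h1, which holds the motor, had 2724 and 2834. The intermediate chains, which bind dynactin, were Dync1i1 with 2865 and 2871 and Dync1i2 with 6329 and 7066, so that Dync1i2 was 11.7% higher while the neuronal Dync1i1 differed by 0.22%. The light intermediate chains had 1006 and 960 for Dync1li1 and 4838 and 4882 for Dync1li2. Dynein-2 serves cilia. Its heavy chain Dync2h1 had 129 and 150, its light intermediate chain Dync2li1 had 311 and 317, and its intermediate chains Dync2i1 and Dync2i2 had 87.8 and 76.6, and 93.0 and 89.8. The chains of this second complex thus did not go 1 way. Among the light chains, Dynll2 had 5664 and 5397, Dynlrb1 had 4777 and 5115 and Dynlt3 had 6615 and 6908. Dynlt1, with 569 and 654, and Dynlt2b, with 398 and 469, were 15.0% and 17.9% higher on the tumor side, and they stayed higher under every scaling tried. Dynlrb2 had 133 and 139, and Dynlt5 had 43.1 and 47.1, below the rule. The probe set shared by Dynll1, the main light chain of this type, and a related locus was not counted and had 5849 and 5912.

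Dynactin tethers dynein to cargo. Dctn1, its large arm that grips the microtubule, had 1656 and 1710, and Dctn2, which joins the arm to the rest, had 1634 and 1692. Dctn5 had 2027 and 2163, and Dctn6 had 2451 and 2632. Dctn4 was the lower one, with 201 and 185. Dctn3 shares its probe set with a related locus, which was not counted and had 2473 and 2577. Over dynein and dynactin, 20 of 21 genes were above the rule, with a median log2 ratio of 0.05 and a range from -0.20 to 0.24. The median of dynactin alone was 0.05 as deposited and turned to -0.040, -0.034 and -0.032 after quantile normalization, centring and loess, so that no direction is given for it.

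Stathmins and structural MAPs lay between -0.01 and 0.15 on the log2 ratio scale. Stmn2, a stathmin of growing axons, had 10037 and 10218, Stmn3 had 6858 and 7008, Stmn1 had 4895 and 5134, and Stmn4 had 322.9 and 322.2. Map1b, a MAP of growing axons, had 9253 and 9196, and Map1a had 499.6 and 501.5. Map2, the MAP of dendrites and cell bodies, had 3256 and 3452, and Map4, a widely expressed MAP, had 1576 and 1586. Mapt, which encodes tau, the main axonal MAP, had 1709 and 1893, and at 10.8% it was the farthest from equal of the 9. The median log2 ratio of the 9 was 0.03, and 7 of them lay below the median of all genes, so that the medians of both groups turned negative after centring.

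Several members had more than 1 probe set above the rule, and these often differed in sign. Of 18 members with at least 2 probe sets above the rule, 12 had log2 ratios of both signs, against 37.1% of 2119 genes. The sign is taken around equal signals, and the median log2 ratio was 0.02 for members and 0.08 for all genes. Members thus lay nearer to a change of sign, and these shares do not measure the spread between probe sets alone. For Mapt, the log2 ratios were 0.15, -0.16 and -0.07, with signals of 1624 and 1457 on the second. For Kif2a, 3 probe sets of nearly the same control-side signal had 799 and 869, 800 and 711, and 775 and 600. Map2 had -0.31 on a second probe set with 106 and 85.3, Kif26b had -0.38 with 147 and 113, Kif3a had 0.27 with 355 and 427, and Kif1a had 0.44 with 68.0 and 92.3. No member had probe sets above the rule that differed by more than 0.5, against 6.51% of the 2119 genes, and the largest range was 0.49, for Kif2a. The median range was 0.16 for the 18 members and 0.16 for the 2119 genes, without matching for signal. At signals of 1024 and above, the same-gene SD was 0.11 for members (5 genes) and 0.07 for all genes. From 256 to 1024 it was 0.17 (6 genes) and 0.13, and from the rule to 256 it was 0.22 (2 genes) and 0.21. Within these ranges, probe sets of members thus differed as much as those of all genes or more. The mean over such probe sets turned the sign of 7 of the 62 members. By contrast, Kif5b (0.01 and 0.00), Map4 (0.01 and 0.03) and Stmn2 (0.03 and -0.06) were close to equal on each of their probe sets above the rule. Which transcript forms the probe sets measure was not analysed here.

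**Figure D4:**
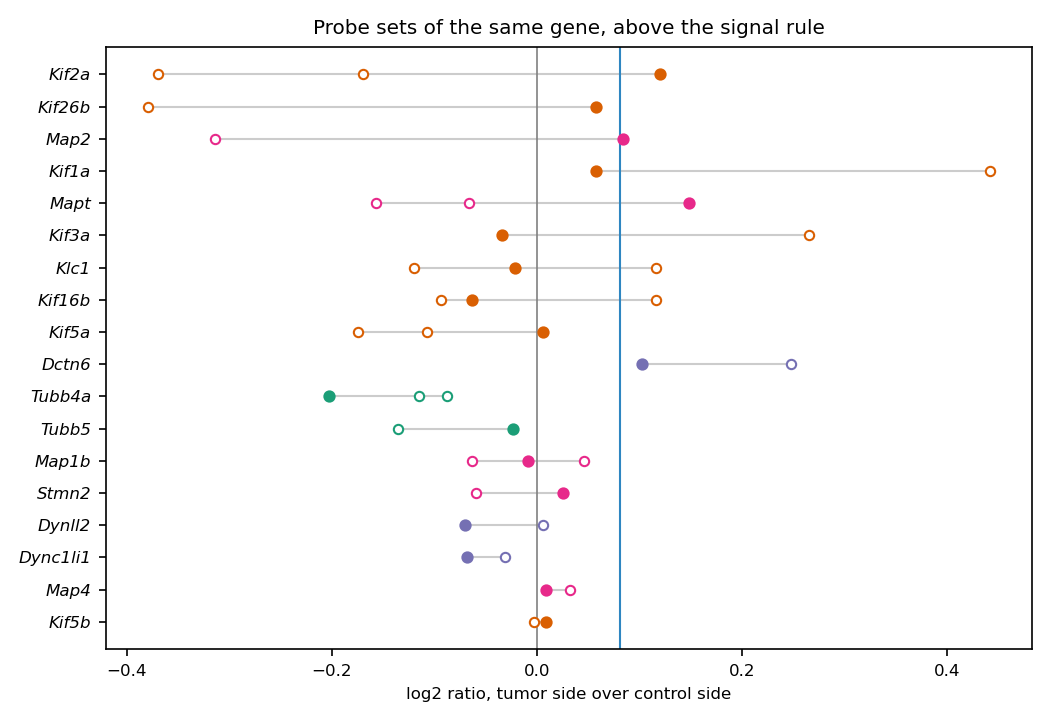
Log2 ratio (tumor side over control side) of each probe set above the signal rule of the 18 members with at least 2 such probe sets, filled for the probe set that represents the gene and open for the others. The grey line marks equal signals and the blue line the median of all genes, 0.08. Kif2a has the widest range (-0.37 to 0.12) and Kif5b the narrowest.

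Further genes of the pathway, from lists that hold no member, also had medians close to equal on both sides. Of 34 listed MAPs and plus-end proteins, 31 were measured and 29 were above the rule, with a median log2 ratio of 0.03. None of the 29 was 25% higher or 20% lower, against 6.93% and 2.42% of all genes above the rule. With these shares, a count of none or 1 in a list of this size says little. The largest differences were in Dpysl3, which binds tubulin in growing axons, with 309 and 367, and Clip1, a plus-end protein, with 164 and 194. Of 34 genes of tubulin folding, modification and severing, 29 were measured and 26 were above the rule, with a median of 0.06 and again none that far from equal. Hdac6, which removes acetyl groups from tubulin, had 213 and 247, while Spast, which severs microtubules, had 612 and 703 and Atat1, which adds the acetyl group, had 84.2 and 74.98. Of 41 motor adaptors and cargo linkers, 38 were measured and 33 were above the rule, with a median of 0.03. Htt, which links motors to vesicles, was the only one of the 33 at that distance, lower with 269 and 209, and Nde1, a dynein regulator, had 78.3 and 92.3. Genes of nerve injury did not go 1 way, with a median of 0.06 over 7 of 12 above the rule. On the tumor side 4 of the 7 were higher, namely Flrt3 (364 and 462), Gal (181 and 216), Jun (823 and 931) and Gadd45a (456 and 474). The other 3 were lower. Of these, Npy had 350 and 238, Atf3, a transcription factor of injured neurons, had 184 and 160, and Gap43, a protein of growing axons, had 3935 and 3582.

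**Figure D5:**
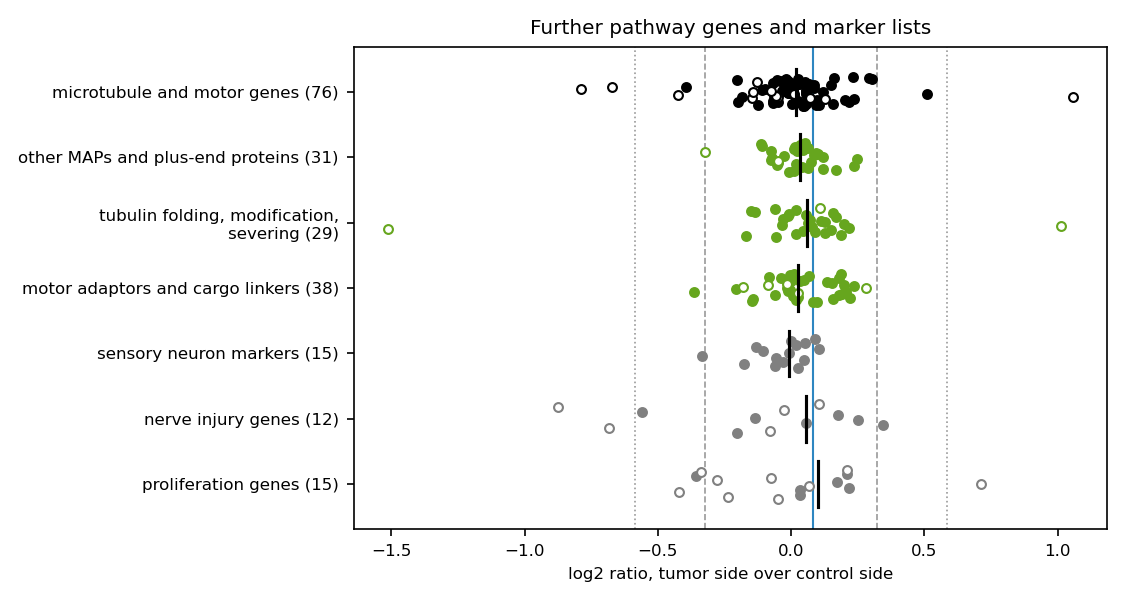
Log2 ratio (tumor side over control side) of the 76 members, 3 further lists of the pathway and 3 marker lists, 1 point per gene, filled above the signal rule and open below it, with the number of measured genes in brackets. Black bars are medians of the filled points, the blue line is the all-gene median (0.08), and dashed lines mark 25% higher and 20% lower and dotted lines a fold of 1.5. The medians of the members and of the 3 pathway lists lie between 0.02 and 0.06.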

How the data were processed

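Signal intensity values on a linear scale were deposited for 31042 probe sets and 57 control probe sets on 2 arrays, 1 per side. The authors made them from 100 ng of total RNA per array on GeneChip Rat Genome 230 2.0 arrays with Microarray Suite 5.0 at default settings (MAS5 in the submitters' processing notes). No source used here gives the scaling target, and the array medians were 68.8 and 72.4.

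Log2 ratios were computed from the deposited intensity values without further scaling or pseudocount. Genes were named through the array's annotation, and all 76 members matched RefSeq genes of GRCr8 by identifier with 0 changed symbols. Another 9 probe sets that pair a symbol of this kind with other symbols were not counted. Promoter windows were found for 64 members. Described one by one were the 3 brightest genes of each subgroup, members past a fold of 1.5 above the rule, and the 8 highest and 8 lowest log2 ratios above the rule. The largest differences were described for the further pathway lists and for the SN marker, nerve injury and proliferation lists. Markers of other tissues were given as medians. Any other gene, the promoters printed and the motif sets described were picked with values in view. No test was possible with 1 array per side, and the number of arrays limits the precision. The members and lists were chosen with earlier results of these data known. The procedure was tested on simulated data. The alternatives tried were median-centred log2 ratios, quantile normalization, loess (span 0.3), a pseudocount of 11.1 (percentile 20 of all signals), the mean over probe sets, cross-hybridising probe sets (suffix _x_at or _s_at) left out, 3 other signal filters and thresholds of 25% and of a fold of 2. Computations ran in Python 3.11.15 with statsmodels 0.14.6, pandas 2.3.3 and numpy 2.4.6, and figures in matplotlib 3.10.9.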

Additional observations from a re-analysis of the deposited data

How the results depend on the processing

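No member above the rule was at least 1.5 times higher or lower under any scaling, pseudocount or choice of probe set. Without a signal filter 1 was higher and 2 were lower, and at 25% higher or 20% lower there was 1 in each direction. Subgroup medians moved by more than the same-gene SD of log2 ratios in 9 of 107 cases, and in 98 they did not. Centring takes 0.08 from each median, so its count depends only on the SD at a subgroup's signal. The pseudocount and the filter on the higher signal changed the medians little, so the 98 do not show stability. The median of the 62 members turned from 0.02 to -0.04, -0.06 and -0.05 after quantile normalization, centring and loess. With median-centred log2 ratios, medians were -0.12 for beta-tubulins, 0.00021 for dynein light chains, -0.034 for dynactin, -0.055 for stathmins and -0.074 for structural MAPs. Quantile normalization and loess gave -0.040 and -0.032 for dynactin. Without a signal filter, the medians were -0.031 for mitotic kinesins and -0.21 for kinesin light chains. Centring takes 0.08 from every log2 ratio, and it turned the sign of 21 of the 62 members, quantile normalization of 18 and loess of 19. Of 456 values of single members, 55 moved by more than the same-gene SD and 401 by less, with the same limit. No mitotic kinesin reached percentile 75 of mean log2 signal, so no median could be given there. Dim signals limit what can be seen, with 14 of 76 members below the rule. No paired analysis was possible because 1 array was made per side.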
